A study of Mus musculus with 2 samples.

Results

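Cholesterol uptake, storage and transfer were followed through 8 genes in mouse adrenal gland: Scarb1, Apoe, Soat1, Lipe, Npc2, Npc1, Stard3 and Tspo. They were taken by symbol from both deposited quantification tables, with every class of transcript model, and are 8 of the 16457 annotated genes that had a read. The material was whole adrenal gland of male B6CASTF1/J mice aged 2 months, an F1 hybrid of a C57BL/6 and a CAST parent with no treatment named, and the 2 libraries form a single group. Males 3 and 4 are named in the biosample records, yet each library description names male 03, and both samples carry the same donor label. Separate animals are therefore not shown, the spread between the libraries may be technical, and every test between them compares these libraries only. Since the gland was read whole, fewer cells of a type and less RNA per cell cannot be told apart.

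The adrenal cortex makes steroid hormones from cholesterol, which it takes up from lipoproteins, keeps as cholesteryl esters in lipid droplets and moves to the mitochondria on demand. Rodent cortex draws mainly on HDL through a surface receptor that strips off the ester without taking in the particle, and esters of endocytosed particles are hydrolysed in the lysosome, from which a pair of sterol-binding proteins export the free cholesterol. Star, which is no member here, is the protein that carries cholesterol across the mitochondrial membranes in response to trophic hormone.

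Long reads were counted per transcript model, and a level is given in CPM, reads per 1000000 gene-assigned reads without spike-ins. A long read was counted once whatever the length of its transcript, so CPM was not divided by transcript length. Whether short and long transcripts were recovered alike within a library was not tested. Replicate 1 held 824225 such reads and replicate 2 held 656826. A gene with no read could have had up to 3 reads, which is 3.64 CPM in replicate 1 and 4.57 CPM in replicate 2. Wilson 95% intervals and these limits cover counting error only, because the reads carry no molecular identifiers. Markers of the adrenal cortex were read in both libraries, led by Cyp11a1 (23120 ± 4575 CPM, mean ± SD, n = 2) and Cyp21a1 (13534 ± 3384 CPM), and the liver list of 5 genes had 0 and 2 reads.

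The members differ in which exons they carry, and 4 stretches show where. Scarb1-201, the leading Scarb1 transcript, ends its reading frame in exon 12, whereas Scarb1-202 skips that exon and ends in the last one. Soat1-207 starts its reading frame in exon 2, which a few reads skip. Lipe-201 starts its reading frame in a first exon that Lipe-202 does not have. The exons are from GENCODE M21 transcripts on mm10, written 5′ to 3′ on the minus strand.
Scarb1 exon 12, chr5:125281105-125281233: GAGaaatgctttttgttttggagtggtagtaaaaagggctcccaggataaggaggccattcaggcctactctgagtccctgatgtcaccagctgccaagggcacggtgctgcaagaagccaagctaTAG
Scarb1-202 junction, chr5:125283899-125283913 joined to chr5:125277851-125277865: caactgcgcagccagGGTCCTGAAGACACT
Soat1 exon 2 coding part, chr1:156466681-156466768: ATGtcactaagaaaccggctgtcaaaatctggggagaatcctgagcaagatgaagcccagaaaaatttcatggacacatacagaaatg
Lipe-201 exon 1 coding part, chr7:25395501-25395609: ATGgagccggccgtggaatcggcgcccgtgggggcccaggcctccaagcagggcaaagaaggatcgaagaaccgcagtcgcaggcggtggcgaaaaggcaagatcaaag
Capitals mark, in exon 12, the first 3 bases, which a new acceptor site leaves out, and the stop codon. In the junction they mark the 15 bases from the last exon, and in the other stretches the start codon.

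Scarb1 and Apoe led the members, followed by Tspo, Soat1, Lipe, Npc2, Stard3 and Npc1 in order of mean level. Together the 8 genes took 4952 reads (0.601%, interval 0.584 to 0.618%) in replicate 1 and 3940 reads (0.600%, interval 0.581 to 0.619%) in replicate 2. As a share of all gene-assigned reads the set was thus alike to within counting error, while its composition was not. The scaling used for the log2 ratios below sets replicate 2 lower by a log2 of 0.10 than such shares do. Scarb1 and Apoe changed places between the libraries, and so did Tspo and Soat1, whose intervals overlapped in each library. The other neighbours in the order were apart in both libraries, with intervals that did not overlap in either.

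**Figure D1:**
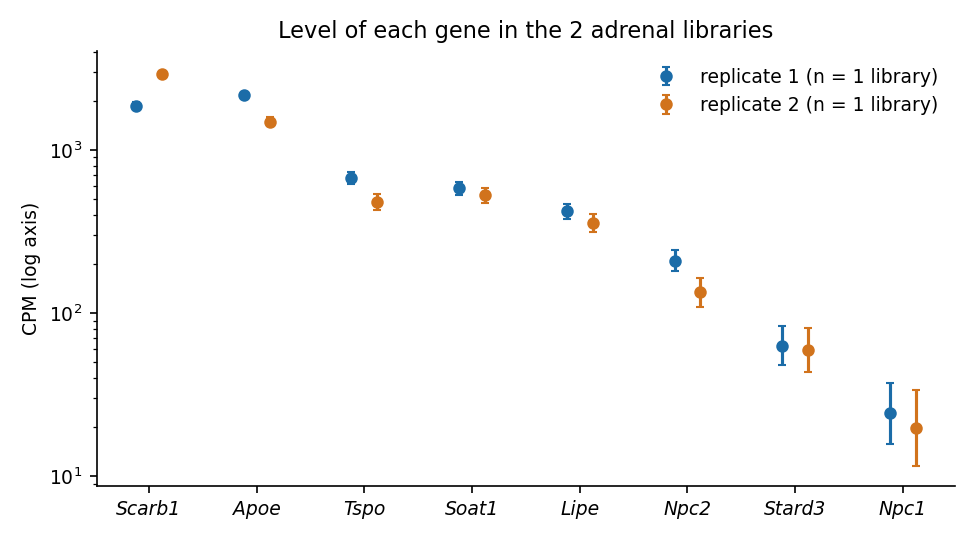
CPM of each of the 8 genes (vertical, log axis) in replicate 1 (blue) and replicate 2 (orange), with Wilson 95% intervals as bars. Levels span from 2400 CPM for Scarb1 to 22.0 CPM for Npc1 as means of the libraries, and the order of Scarb1 and Apoe differs between the libraries.

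Scarb1, the HDL receptor that takes up cholesteryl esters selectively (ENSMUSG00000037936.15, chr5:125277087-125341094), stood at 1867 CPM in replicate 1 and 2932 CPM in replicate 2, or 2400 ± 753 CPM (SD, n = 2). It ranked 31 and 18 among all genes. Replicate 2 was higher by a log2 ratio of 0.55, with an adjusted p of 1.05e-26 in the exact binomial test over all 8063 genes tested. Scarb1 was the only member higher in replicate 2. Of all genes tested, 11.1% passed the adjusted p of 0.05 in either direction, 7.53% as higher in replicate 1 and 3.55% as higher in replicate 2.

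Apoe, the lipoprotein component that serves as a ligand for cell-surface receptors (ENSMUSG00000002985.16, chr7:19696109-19699188), stood at 2168 CPM in replicate 1 and 1489 CPM in replicate 2, or 1829 ± 480 CPM. Its ranks were 26 and 49. Apoe was higher in replicate 1 (log2 ratio of replicate 2 over replicate 1 -0.64, adjusted p 1.13e-27, exact binomial test). With single-exon reads that match no splice pattern left out, the log2 ratio was -0.48.

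Soat1, the acyltransferase that esterifies cholesterol for storage (ENSMUSG00000026600.12, chr1:156424525-156474331), had 582 CPM in replicate 1 and 527 CPM in replicate 2, or 555 ± 39.3 CPM. Lipe, hormone-sensitive lipase, which hydrolyses the stored esters (ENSMUSG00000003123.15, chr7:25379527-25398710), had 421 and 358 CPM, or 389 ± 44.7 CPM. Soat1 was above Lipe in both libraries, by 1.38 and 1.47 times in reads. Neither storage gene passed the test between libraries (log2 ratio -0.24, adjusted p 0.110 for Soat1, and -0.33, adjusted p 0.0533 for Lipe, exact binomial test).

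Npc2, the soluble lysosomal protein that hands cholesterol to Npc1 (ENSMUSG00000021242.9, chr12:84754562-84773152), had 210 CPM in replicate 1 and 134 CPM in replicate 2, or 172 ± 53.7 CPM. It was higher in replicate 1 (log2 ratio -0.74, adjusted p 0.00127, exact binomial test). Npc1, the membrane protein that exports cholesterol from the lysosome (ENSMUSG00000024413.14, chr18:12189692-12236400), had 20 reads (24.3 CPM, interval 15.7 to 37.5) and 13 reads (19.8 CPM, interval 11.6 to 33.9). The levels of both libraries lay above the limit set by a count of 0. Among the members Npc1 was the least read, and its log2 ratio of -0.38 had an adjusted p of 0.792 in the exact binomial test.

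Stard3, a late endosomal membrane protein with a sterol-binding START domain (ENSMUSG00000018167.10, chr11:98358368-98381112), had 63.1 and 59.4 CPM, or 61.2 ± 2.63 CPM. Tspo, the translocator protein of the outer mitochondrial membrane (ENSMUSG00000041736.7, chr15:83563592-83574203), had 672 CPM in replicate 1 and 480 CPM in replicate 2, or 576 ± 136 CPM. The log2 ratio was -0.19 for Stard3 (adjusted p 0.866) and -0.59 for Tspo (adjusted p 2.25e-07) in the exact binomial test. In all, 4 of the 8 members passed the adjusted p, where 11.1% of all genes tested did. Scarb1 was higher in replicate 2, and Apoe, Npc2 and Tspo were higher in replicate 1. None of the 8 reached 2-fold as well, where 3.41% of all genes did. The same test has more reads to work with for the abundant members than for Npc1 and Stard3.

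Transcript length moved with the difference between the libraries. Over all genes tested, the median log2 ratio ran from -0.71 in the bin of shortest transcripts (median 604 bases) to 0.21 in a bin with a median of 4137 bases. Tspo, whose transcripts measured 837 bases, lay on this trend: with the trend removed its log2 ratio was -0.01 and its adjusted p 1.00 in the exact binomial test. Scarb1 kept a log2 ratio of 0.43 and Apoe one of -0.47 after removal. For Lipe the log2 ratio went to -0.55 (adjusted p 2.66e-04) and for Soat1 to -0.33 (adjusted p 0.0272), so that 5 of the 8 passed, where 5.78% of all genes did. Npc2 then stood at -0.90 (adjusted p 6.2e-05, exact binomial test).

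**Figure D2:**
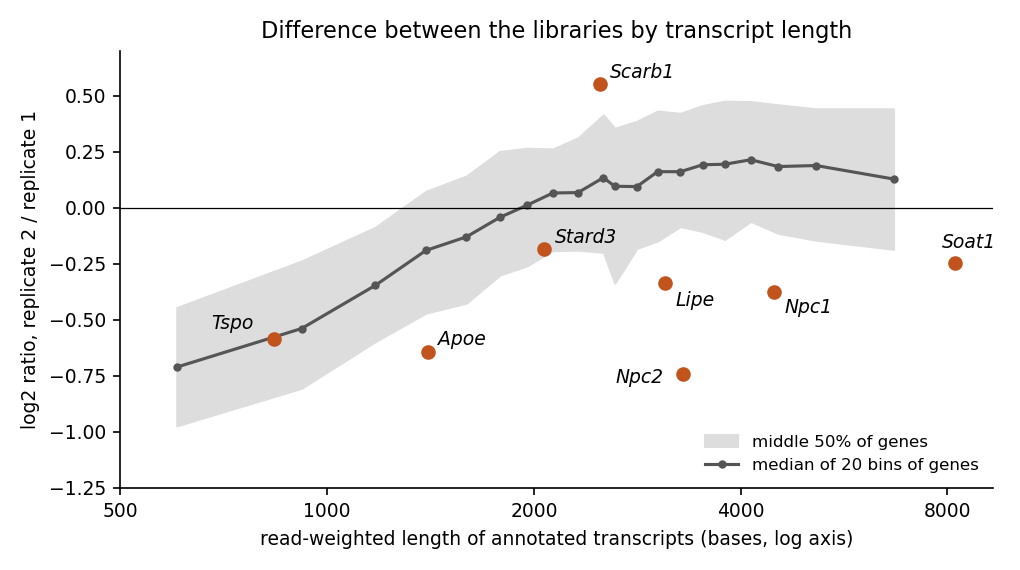
Log2 ratio of replicate 2 over replicate 1 (vertical) against the read-weighted length of a gene's annotated transcripts in bases (horizontal, log axis). The grey line joins the medians of 20 bins of genes and the band holds the middle 50% of genes in each bin; the 8 genes are points, with Tspo on the line, Scarb1 above the band, and Apoe, Lipe, Npc1 and Npc2 below it, and with Soat1 to the right of the last bin median and below the lower quartile of that bin (-0.19).

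All 9 adipocyte markers passed the test as higher in replicate 1, 5 of them by 2-fold. Their summed level was 19793 CPM in replicate 1 and 11460 CPM in replicate 2. The most abundant were Car3 (7081 ± 2226 CPM) and Cfd (3432 ± 1138 CPM). Of all genes tested 7.53% passed as higher in replicate 1, 3.55% as higher in replicate 2, and 3.41% passed at 2-fold in either direction. The length trend was not removed from the marker counts given here. Lipe is known as a fat-cell lipase as well as a cortical one, and the part of fat cells in its level and in the higher Apoe level of replicate 1 was not tested. Erythroid markers, led by Hba-a1 (723 ± 429 CPM) and Hbb-bs (399 ± 207 CPM), were also higher in replicate 1 for 4 of 5 genes. Macrophages make Apoe too, and their part in the Apoe level was not tested. None of the 6 macrophage markers tested passed, and their median log2 ratio was -0.32. The list had sums of 1013 and 947 CPM led by Cd74 (547 ± 7.30 CPM) and Lyz2 (165 ± 24.3 CPM). Of 7 cortex markers 2 passed as higher in replicate 1 and 3 as higher in replicate 2, with sums of 53343 and 53923 CPM. Of the 6 medulla markers tested 1 and 2 passed in those directions, led by Chgb (4221 ± 471 CPM) and Chga (3717 ± 401 CPM). Endothelial markers, led by Plvap (322 ± 97.4 CPM) and Eng (175 ± 43.2 CPM), had 1 of 5 higher in replicate 2. The glia list had 36 and 23 reads, led by Mbp and S100b, and the kidney list 6 and 6 reads, all on Aqp2.

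Most reads of the members matched an annotated transcript over its whole intron chain. TALON, the program behind the deposited models, calls these Known. It calls a model ISM where the intron chain is an incomplete piece of an annotated one, NIC where known splice sites are newly combined, NNC where a splice site is new, and Genomic where no splice pattern fits. Over all annotated genes 79.4% of reads in replicate 1 and 79.0% in replicate 2 were Known. Tspo (91.9 and 88.9%), Npc2 (90.8 and 88.6%), Scarb1 (86.8 and 91.1%) and Soat1 (85.2 and 84.4%) lay above that share of pooled reads in both libraries. The median gene with at least 20 reads in a library had a Known share of 84.2 and 84.4%, which is close to that of Soat1. Lipe (63.1 and 73.6%) lay below the pooled share and the median gene in both libraries, and Npc1 had 2 Known reads in each library.

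**Figure D3:**
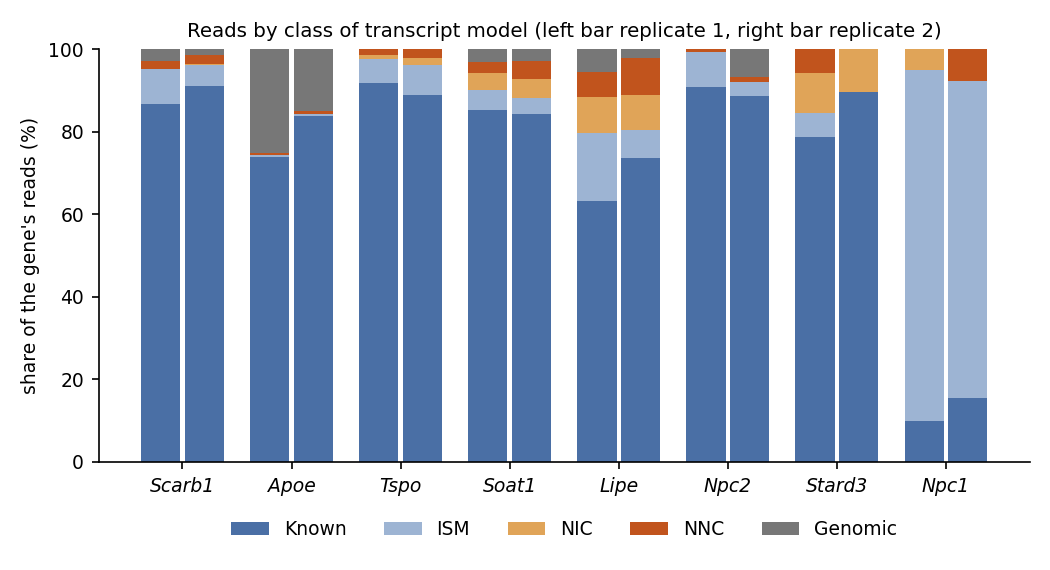
Share of each gene's reads (vertical, %) by class of transcript model, with replicate 1 as the left bar and replicate 2 as the right bar of each pair. Known models hold most reads of every gene except Npc1, which is mostly ISM, and the Genomic share of Apoe is 25.1% in replicate 1 and 15.0% in replicate 2.

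Apoe differed from the other members in how many reads showed no splicing. A single model of class Genomic, 354 bases long and lying inside exon 4 (chr7:19696267-19696620), held 448 reads in replicate 1 and 147 in replicate 2. That is 25.1% (interval 23.1 to 27.1%) and 15.0% (interval 12.9 to 17.4%) of Apoe reads, against 4.74 and 3.35% Genomic over all annotated genes. Of its 354 bases 238 are coding, and both edges fall on ends of annotated Apoe transcripts, so the deposited edges need not be those of the reads. Apoe-206, a transcript of 4 exons and 311 codons, held 71.2% (interval 69.1 to 73.3%) and 81.7% (interval 79.2 to 84.0%) of reads. Its share differed between the libraries by 10.5 percentage points with an adjusted p of 4.92e-07 in Fisher's exact test, where 0.487% of 5334 genes were called at 10 points and the adjusted p. The share of all Known models of Apoe moved from 73.8 to 83.8% (adjusted p 7.90e-07, Fisher's exact test, 0.319% of genes called). Both calls ended when Genomic reads were left out (adjusted p 1.00), and Apoe-206 then held 95.6% of Apoe reads on average.

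Spliced Apoe reads were simple. Apoe-205, with 3 exons and the same 311 codons, had 42 and 19 reads. A new donor site in the first intron, 112 bases from the nearest annotated one, was joined in 7 and 5 reads (intron chr7:19698254-19698859). An ISM model of 2 exons had 8 and 5 reads. The neighbour Tomm40 ran through into Apoe exons in 1 read of each library, and these reads were counted to Tomm40.

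Scarb1-201 encodes 509 codons in 13 exons and held 82.4% (interval 80.4 to 84.2%) of Scarb1 reads in replicate 1 and 87.2% (interval 85.6 to 88.6%) in replicate 2. The adjusted p of this difference was 0.0212 in Fisher's exact test, where 0.637% of genes passed, and it rose to 0.166 without Genomic reads. The share of all Known models of Scarb1 moved from 86.8 to 91.1% (adjusted p 0.0166, Fisher's exact test, where 0.469% of genes passed), and its adjusted p was 0.174 without Genomic reads and 0.921 with ISM counted as annotated. Exon 12, whose sequence is given above, was held by 1408 reads and skipped by 53 in replicate 1, and held by 1806 and skipped by 56 in replicate 2. Inclusion was therefore 96.4 and 97.0%. The exon has 129 bases, of which 126 are coding, ahead of the stop codon. Scarb1-202, which joins exon 11 directly to the last exon, had 48 reads (3.12%, interval 2.36 to 4.11%) and 54 reads (2.80%, interval 2.16 to 3.64%). It encodes 506 codons, because 117 bases of the last exon become coding in place of the 126 of exon 12. These transcripts correspond to the receptor forms known as SR-BI and SR-BII, which differ in their cytoplasmic tail.

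Scarb1 reads held 31 introns that are not annotated, 8 of them in both libraries and 3 with at least 3 reads in each. An acceptor 3 bases inside exon 12 was used in 10 and 7 reads (intron chr5:125281231-125283898), which leaves out the capital GAG at the front of that exon. The 3 bases are a multiple of the codon length, and they themselves end in AG. A donor 11 bases beyond the end of exon 12 was used in 7 and 16 reads (intron chr5:125277866-125281093), past the stop codon of Scarb1-201. An acceptor 2 bases inside exon 11 was used in 3 and 3 reads. Full models carried the first and the second of these sites, with 8 and 6 reads and with 6 and 13 reads. All 7 named ISM models of Scarb1, with 4 to 12 exons, kept the 3′ exons and lacked 5′ ones, and Scarb1-204, a processed transcript, had 19 and 15 reads.

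Lipe had no dominant transcript. Lipe-202 (759 codons) held 31.1% (interval 26.5 to 36.2%) and 34.9% (interval 29.1 to 41.2%) of Lipe reads, and Lipe-201 (802 codons) 27.1% (interval 22.7 to 32.0%) and 31.1% (interval 25.5 to 37.2%). The intervals of the pair overlapped in each library. Their reads differ in the first exon, which lies 6847 bases of intron away from the shared second exon in Lipe-201 and 1408 bases away in Lipe-202. In Lipe-201 the first exon adds 109 coding bases, printed above, and all 536 bases of the shared exon are coding. In Lipe-202 the first exon of 45 bases is noncoding and 516 bases of the shared exon are coding.

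Among spliced Lipe reads, 113 of 329 in replicate 1 and 84 of 229 in replicate 2 joined the Lipe-202 first exon to the shared exon, and 100 and 78 joined that of Lipe-201. Lipe-208, which runs upstream from the shared exon with no intron there and has the same 759 codons as Lipe-202, had 17 and 17 reads. A new donor that leaves an intron of 99 bases was used in 26 and 11 reads, and another, with an intron of 1036 bases, in 8 and 4 reads. The intron of 1065 bases annotated in Lipe-205 had 17 and 9 reads. Lipe-204, the longest annotated form with 1072 codons and a first exon farther upstream, shares the same acceptor and had no read that joined it. All these junctions lie upstream of the start codon of Lipe-202.

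**Figure D4:**
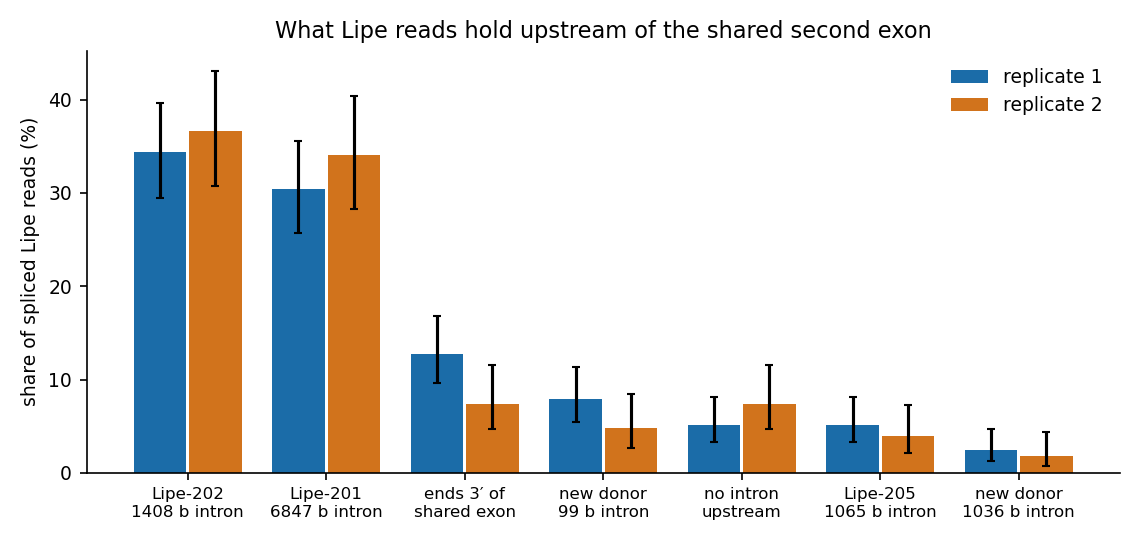
Share of spliced Lipe reads (vertical, %) by what they hold upstream of the exon shared by Lipe-201 and Lipe-202, in replicate 1 (blue, 329 reads) and replicate 2 (orange, 229 reads), with Wilson 95% intervals. The 2 leading first exons take 34.3 and 30.4% in replicate 1 and 36.7 and 34.1% in replicate 2, and every other choice is below 13%.

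New Lipe models combined these sites. A model of 11 exons and 2774 bases had 7 and 4 reads, one of 10 exons and 3004 bases 12 and 6 reads, and one of 10 exons and 3970 bases 7 and 5 reads. All began at the annotated start of Lipe-202. Those of 3004 and 3970 bases were classed ISM in replicate 1 and NIC or NNC in replicate 2 for the same intron chain, so the class of a Lipe model depended on the library. The model of 11 exons was NIC in both libraries. It and the model of 3970 bases hold the intron of 99 bases, whose donor is not annotated. The deposited classes of these models thus did not follow GENCODE M21 alone. Lipe introns that are not annotated numbered 38, of which 12 were read in both libraries. The Known share of Lipe, 63.1 and 73.6%, differed by 10.5 points with an adjusted p of 0.496 in Fisher's exact test.

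The regions before the Lipe starts differ in their letters. RefSeq (GRCm38.p6) gives windows for 5 of the 8 members, Soat1, Apoe, Lipe, Stard3 and Npc2, and none for Scarb1, Tspo and Npc1. The 250 bases before each start were searched on both strands for the GC box GGGCGG, the TATA box TATAAA, the SF-1 element CAAGGTCA and the CRE core TGACGT. The window before the distal Lipe start (chr7:25395988-25396237), which lies inside the first exon of Lipe-201, held 6 GC boxes, some of them overlapping. The window before the proximal start held no match to any of the 4 and is given to show that contrast, with no letter in capitals.
Lipe proximal window, chr7:25390113-25390362, minus strand: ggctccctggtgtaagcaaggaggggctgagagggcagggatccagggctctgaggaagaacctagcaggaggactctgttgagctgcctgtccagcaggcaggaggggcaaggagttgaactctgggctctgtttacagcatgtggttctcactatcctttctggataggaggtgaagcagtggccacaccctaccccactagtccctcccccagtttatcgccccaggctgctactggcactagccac
Over all 32851 windows 32.7% held a GC box, 12.4% a TATA box, 6.47% a CRE core and 1.33% an SF-1 element. Stard3 had 4 GC boxes and Npc2 3, and 1 of the 3 Apoe windows had 2 TATA boxes. The Soat1 window held none of the 4, and no member window held the SF-1 element or the CRE core. A match is a string of letters and was not tested as a binding site.

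Soat1-207 held 82.7% (interval 79.1 to 85.8%) and 82.9% (interval 78.6 to 86.5%) of Soat1 reads, the smallest difference between libraries among the leading transcripts. It has 16 exons, 540 codons and a last exon of 6591 bases, of which 54 are coding. Exon 2 was skipped by 12 reads and held by 411 in replicate 1, and skipped by 8 and held by 308 in replicate 2. The skipping model of 15 exons had 9 and 7 reads and lacks the annotated start codon printed above. An intron that differs from annotated intron 3 by 4 bases at the donor and 3 at the acceptor (chr1:156446690-156457941) was read 5 and 12 times. Its donor was also joined to the annotated acceptor in 3 and 3 reads. A model of 16 exons with that intron had 5 and 9 reads, and ISM models of 13 and 10 exons had 5 and 5 reads and 8 and 4 reads. The genome letters at these new Soat1 sites were not read, and whether reads were aligned a few bases off was not tested.

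The 3′ ends of Soat1 can be seen only in its new models, because a Known model carries the annotated ends whatever its reads did. In the spliced ones, 33 and 28 reads ended at 156429793, an annotated end inside the long last exon. A further 19 spliced reads of replicate 1 ended at 156428532 and 11 of replicate 2 at 156428485. New single-exon models had 9 and 3 reads that ended at 156424525, the annotated end of Soat1-207. Another 5 single-exon reads of replicate 1 ended at 156428532, and 7 of replicate 2 at 156427735. None of these counts includes the 397 and 287 reads on Soat1-207, whose own ends are not visible. Over all members 95.7% of 1466 reads on new models had a 3′ edge on some annotated end, and 78.0% a 5′ edge. Edges of new models thus also followed the annotation over the members as a whole. Apoe gave 626 of these reads, all with both edges on annotated ends. For Soat1 the 3′ share was the lowest of the members, at 58.4% of 125 reads. Its 5′ share was 60.0%, and those of Tspo (32.5%), Npc2 (30.8%) and Npc1 (6.90%) were lower still.

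Tspo and Npc2 had simple structures. Tspo-201 (4 exons, 169 codons) held 91.9% (interval 89.3 to 93.9%) and 88.9% (interval 84.9 to 91.9%) of Tspo reads, and no Tspo read was Genomic. A model of 4 exons and 1281 bases, whose first intron begins at a downstream donor (chr15:83564089-83571384), had 5 and 3 reads, and ISM models of 3 and 2 exons had 8 and 9 reads and 12 and 6 reads. Npc2-201 (4 exons, 149 codons) held 90.2% (interval 84.8 to 93.8%) and 87.5% (interval 79.0 to 92.9%) of Npc2 reads, and an ISM model of 3 exons had 3 reads in each library. Stard3-201 (15 exons, 446 codons) had 41 of 52 reads and 35 of 39 reads, a difference of 10.9 points with an adjusted p of 0.997 in Fisher's exact test. No member other than Apoe was called for the share of its leading transcript or of its Known models, and Npc1 had too few reads in replicate 2 to be tested.

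Npc1 reads rarely spanned the gene. Npc1-201 has 25 exons, 1277 codons and 5224 bases, and 2 of 19 spliced reads in replicate 1 (10.5%, interval 2.94 to 31.4%) and 2 of 13 in replicate 2 (15.4%, interval 4.33 to 42.2%) extended past intron 1. In every other member at least 82.4% of spliced reads did so, including Soat1, whose introns number 15. The annotated length of the leading Soat1 transcript, 8371 bases, is greater than that of Npc1-201, but it need not be the length read. The ends of reads on that Soat1 transcript are not visible. New spliced Soat1 models ended short of its annotated 3′ end, with 33 and 28 reads at 156429793. The part of transcript length in the Npc1 result was not tested. ISM models held 17 of 20 and 10 of 13 Npc1 reads. The most read of them had the last 6 exons in 2150 bases, with 7 and 4 reads. Past intron 20 of 24 lay 17 of 19 reads in replicate 1 and 13 of 13 in replicate 2, and past intron 18 lay 10 and 7 reads. The Npc1 gene count was thus mostly a count of its 3′ exons, and with Known models only its level would be 3.56 CPM in place of 22.0 CPM.

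**Figure D5:**
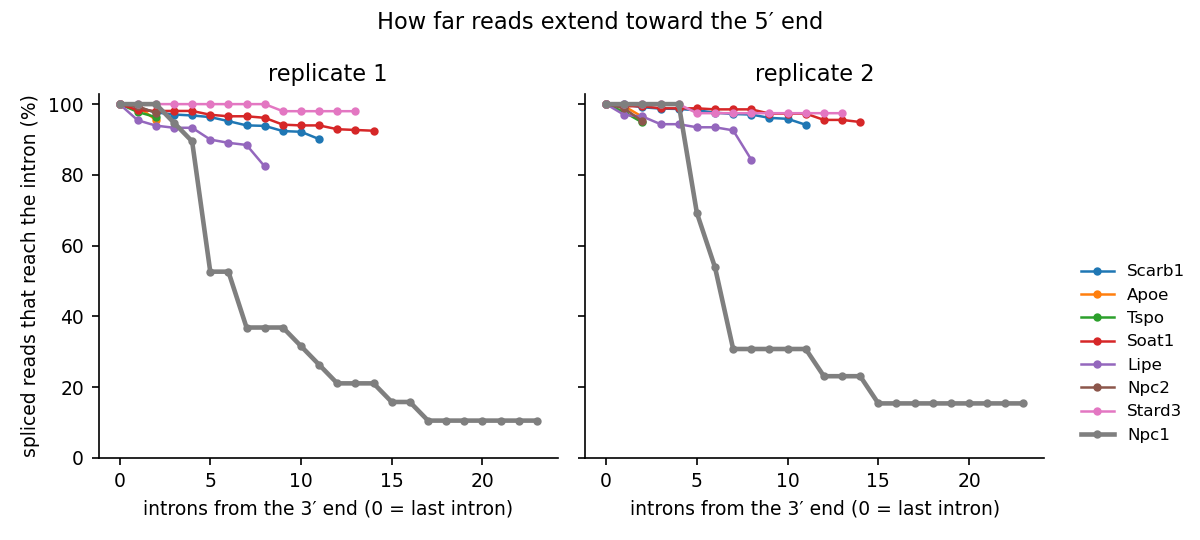
Share of spliced reads that extend past each intron toward the 5′ end (vertical, %) against the number of introns from the 3′ end (horizontal), for each gene in replicate 1 (left) and replicate 2 (right). Npc1 falls to 10.5 and 15.4% at its first intron, and the other 7 genes stay at 82.4% or above.

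The surrounding pathway was read through 7 lists with 85 genes, of which 59 could be tested. Of these 15 passed the adjusted p as higher in replicate 1 and 3 as higher in replicate 2, 5 also reached 2-fold, and the median log2 ratio was -0.15 against 0.01 over all genes tested. Of all genes tested 7.53%, 3.55% and 3.41% did so. In lipoprotein uptake 8 genes were tested and 3 were higher in replicate 1, with a median of -0.71. Lpl, the lipase that anchors at the vessel wall, led this list (1766 ± 543 CPM, log2 ratio -0.74), followed by Cav1 (193 ± 71.2 CPM, -0.86) and Cd36 (185 ± 74.5 CPM, -0.94). The length trend was not removed from these values, and the part of fat cells in them was not tested.

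Among apolipoproteins and their exchange factors, 3 of 5 tested were higher in replicate 1 and none in replicate 2 (median -0.78). These directions held 7.53% and 3.55% of all genes tested. Ces1d (297 ± 97.6 CPM) and Clu (214 ± 20.8 CPM) were the most abundant, and Apoc1 (54.4 ± 29.5 CPM, log2 ratio -1.24) and Apoc4 (20.3 ± 15.8 CPM, -1.78), which lie in the gene cluster of Apoe, were called. With the length trend removed neither passed the exact binomial test (Apoc1 -0.49, adjusted p 0.590, and Apoc4 -1.01, adjusted p 0.449). Apoa1 and Apob are also on the liver list. Of 14 genes tested for droplet ester turnover 6 were higher in replicate 1 and none in replicate 2 (median -0.36). Cidec (1374 ± 201 CPM), the lipase gene Pnpla2 (929 ± 157 CPM) and Cidea (871 ± 630 CPM, log2 ratio -1.73) led it, and Cidea and the Pnpla2 inhibitor gene G0s2 (147 ± 64.3 CPM, -1.01) were called. With the length trend removed Cidea stood at -1.36 and still passed, while G0s2 stood at -0.44 and did not (adjusted p 0.284, exact binomial test). Cidea, Cidec and Plin1 are also adipocyte markers, and those moved with the libraries as given above.

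In the lysosomal list 1 of 10 passed the test, as higher in replicate 2 (median -0.10), against 11.1% of all genes in either direction. Lamp1 (804 ± 17.7 CPM), Psap (612 ± 133 CPM, the gene that passed, log2 ratio 0.35) and Laptm4b (407 ± 23.0 CPM) led it, each above Npc2 and Npc1. Psap did not pass with the length trend removed (0.24, adjusted p 0.140, exact binomial test). For transfer between membranes 1 of 13 was higher in replicate 1 and 1 in replicate 2 (median 0.11). These were Scp2 (512 ± 102 CPM, log2 ratio -0.51) and Star (13340 ± 1883 CPM, 0.19), with Vapa (322 ± 4.75 CPM) next in level. Star was read more often than any of the 8 members, and with the length trend removed its log2 ratio was 0.00. Scp2 then stood at -0.13 and did not pass either (adjusted p 0.677, exact binomial test).

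Against 11.1% of all genes tested, 1 of 5 partners of Tspo at the outer mitochondrial membrane passed, as higher in replicate 1 (median -0.01). That was Dbi, a small acyl-CoA-binding ligand of Tspo (1295 ± 460 CPM, log2 ratio -0.84), which like Tspo has short transcripts and stood at -0.11 with the length trend removed (adjusted p 0.522, exact binomial test). Vdac1 (337 ± 14.7 CPM) and Vdac2 (195 ± 5.05 CPM) followed. In the efflux list Nr1h2 (193 ± 43.3 CPM), Nr1h3 (73.2 ± 30.3 CPM) and Abcg4 (49.4 ± 18.4 CPM) led, and 1 of 4 tested, the oxysterol receptor gene Nr1h3, was higher in replicate 1 (log2 ratio -0.96, list median 0.51). The exporter genes Abca1 (7 and 9 reads) and Abcg1 (5 and 1 reads) had too few reads to be tested. Scaling by library totals adds 0.10 to every log2 ratio, so a list median of -0.10 or -0.01 has no settled sign.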

How the data were processed

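Whole adrenal gland of 1 group was profiled in 2 libraries by long-read RNA sequencing. The authors deposited whole-number counts of reads per transcript model, not normalized, 1 table per library, with mm10 and GENCODE M21 named in the file headers and TALON named in the deposited annotation. No source used here names the aligner. The deposited lengths and exon numbers are those of the models, not of reads.

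Reads were summed per gene over all classes without spike-ins (5731 and 5156 reads). The log2 ratio of a gene sets replicate 2 over replicate 1 after TMM scaling (edgeR 4.0.16, R 4.3.3), with 1 CPM added to each level. Since edgeR's quasi-likelihood test needs groups, genes with at least 20 reads in sum had a two-sided exact binomial test. Shares were tested by two-sided Fisher's exact test where both libraries held 20 or more reads of the gene. Each test was adjusted by Benjamini-Hochberg over all genes tested and tried on simulated data with known answers. Those data held counting error only, with no length trend, so the trial does not cover other differences between the libraries. The length trend is a running median over genes ranked by transcript length. DESeq2 1.42.0 gave alternative size factors, and Python 3.11.15, numpy 2.4.6, pandas 2.3.3, scipy 1.17.1 and matplotlib 3.10.9 did the rest.

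Members, lists and tests were chosen with earlier results of these data known. Named were all members, their annotated models with at least 5 reads and new spliced models with at least 3 reads in each library. Named too were the 3 most abundant genes and every called gene of each pathway list, and the 2 most abundant of each marker list. New introns were named after their values were seen. A result for 1 gene of the lists is not reported here.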

Additional observations from a re-analysis of the deposited data

Results flagged for a closer look

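Reads of new loci on the strand opposite to 2 members appeared outside the gene counts, above the 3 reads that a count of 0 allows in each library. Opposite Soat1, the acyltransferase gene, 6 models held 109 reads in replicate 1 and 6 models held 42 reads in replicate 2, which is 22.7 and 12.1% of the Soat1 reads. The most read were single-exon models inside the long last exon of Soat1-207: chr1:156428532-156429793 had 56 and 11 reads, and chr1:156424525-156428532 had 37 and 25 reads. Their edges include the annotated end at 156429793 named above.

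Opposite Scarb1, the HDL receptor gene, 6 models in each library held 24 reads in replicate 1 and 48 reads in replicate 2, or 1.56 and 2.49% of the Scarb1 reads. The most read of these had 11 and 27 reads and overlapped leading-transcript exons by 167 and 168 bases, and the rest lay in introns. No source used here says how strand was assigned, so reads of a gene and of a partner on the other strand cannot be told apart. Opposite Npc1 there was 1 read in replicate 1, and opposite the other 5 members there was none.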

How the results depend on the processing

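The number of genes called between the libraries, 275 at 2-fold and 893 at the adjusted p, stayed within 1.5 times under other scalings, read minimums and model classes, but was 133 and 466 with the length trend removed. The 26 genes called for the leading transcript share became 2 with Known models only. The 17 called for the annotated-model share became 46 with ISM counted as annotated and 31 without Genomic models. Between 4 and 6 members passed the adjusted p under every alternative run. The cause of these shifts was not tested.

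Signs turned for Stard3 with Known models only (log2 ratio 0.015), for the difference in the leading share of Npc2 (mean share 92.0%) and its annotated share (92.9%) without Genomic models, and for the leading share of Lipe with Known models only (48.4%), none of which passed the test in either setting. With DESeq2 size factors Lipe (adjusted p 0.0163) and Soat1 (0.0341) also passed the exact binomial test. With at least 50 reads in sum Lipe passed (0.0366). Neither passed the exact binomial test with library totals (Lipe -0.23, adjusted p 0.235, and Soat1 -0.14, adjusted p 0.432). Nor did they with Known models only (Lipe -0.10, adjusted p 0.820, and Soat1 -0.24, adjusted p 0.157, same test). No paired analysis was possible because the labels give a single group. Npc1, with 20 and 13 reads, is limited by depth, and its difference was not detectable.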
